A study of Mus musculus with 2 samples.

Results

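The 10 genes described here are markers by which macrophages are recognised in the fetal liver: Adgre1, Csf1r, Cd68, C1qa, C1qb, C1qc, Mrc1, Timd4, Cd5l and Vsig4. They were taken by name, and all 10 were found among the 43346 mouse gene identifiers of the deposited tables. The data are 2 total RNA libraries of whole liver from B6NCrl mouse embryos at embryonic day 12.5, made from pools of 120 embryos (replicate 1) and 88 embryos (replicate 2) of both sexes. Both libraries belong to 1 untreated group, so the data give levels of these genes and their spread between the pools, and allow no test between conditions. Because animals were pooled and no cells were sorted, fewer macrophages and less RNA per macrophage cannot be told apart, and the variation between embryos is not given. The libraries started from 10 ng of RNA each and held 37562400 and 34730000 expected counts, which are estimated reads per gene, with 2.94% and 3.19% of them on added spike-in RNAs. Genes of the liver parenchyma stood high, with Afp at 5312 and 5136 TPM and Alb at 898 and 913 TPM in replicates 1 and 2. TPM is a level scaled by transcript length, so values of different genes can be set side by side as far as length goes. Other differences between genes in how readily their RNA yields reads were not tested.

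Macrophages of the fetal liver descend from progenitors that arise in the yolk sac and settle in the liver as it starts to make blood. There they sit at the centre of clusters of maturing red cells, take up expelled nuclei and dying cells and recycle iron, and some of their descendants become the Kupffer cells of the adult organ. The 10 genes cover the growth factor receptor that keeps macrophages alive (Csf1r), an adhesion receptor known as F4/80 (Adgre1), a lysosomal glycoprotein (Cd68), the chains of the complement starter C1q (C1qa, C1qb, C1qc) and receptors or secreted proteins for uptake and clearance (Mrc1, Timd4, Cd5l, Vsig4).

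Of the 10 genes, 9 were detected, meaning a TPM of at least 1 in both libraries, and Vsig4 was not. Of 21474 protein-coding genes, 54.5% met the same limit. Levels of the 9 detected genes spanned 10.8-fold, from Timd4 to C1qb. Their median was 13.005 TPM, that of Cd68, against 12.7 TPM over all 12841 detected genes, and 5 of the 9 lay above that median. All 10 genes together took 8560 reads in replicate 1 and 7823 reads in replicate 2, which is 0.0228% and 0.0225% of the libraries. The C1q genes held 63.0% and 63.2% of the summed TPM of the 10 genes.

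**Figure D1:**
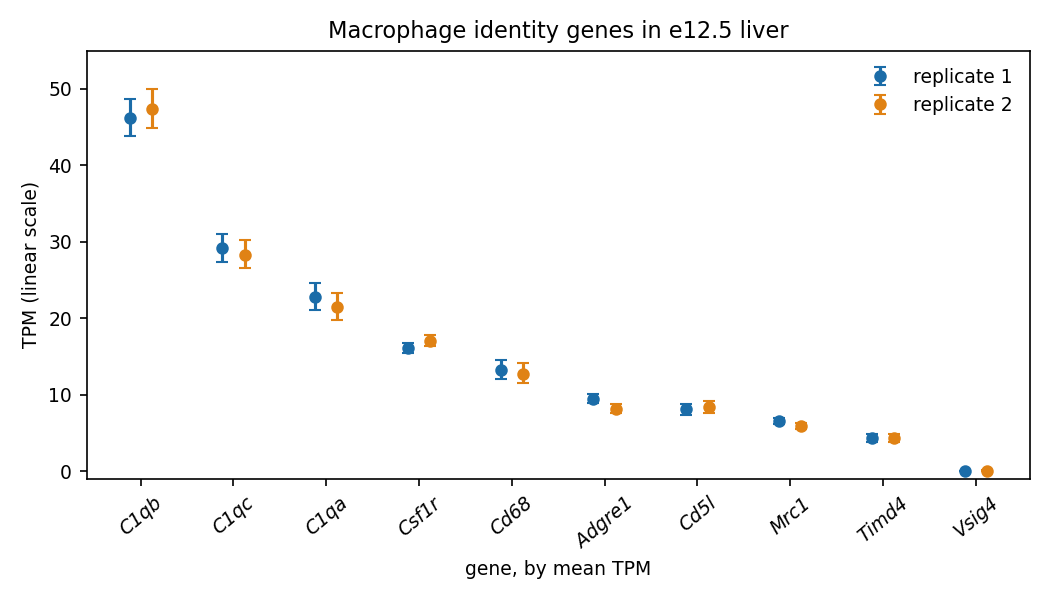
TPM on a linear scale (vertical axis) of each gene (horizontal axis, ordered by mean), with points for replicate 1 (left) and replicate 2 (right) and bars for exact 95% Poisson intervals of the reads. C1qb stands highest at 46.3 and 47.4 TPM and Vsig4 lies at 0 and 0.05 TPM, and the pools differ little beside the gaps between most genes.

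The order of levels was the same in both libraries apart from Adgre1 and Cd5l. From the top it ran C1qb, C1qc, C1qa, Csf1r, Cd68, Adgre1 with Cd5l, Mrc1, Timd4 and Vsig4. Adgre1 had 9.50 and 8.20 TPM and Cd5l had 8.09 and 8.36 TPM, so these neighbours did not differ beyond their spread. Every other pair of neighbours was separated in both libraries, with intervals of counting error that did not overlap.

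**Figure D2:**
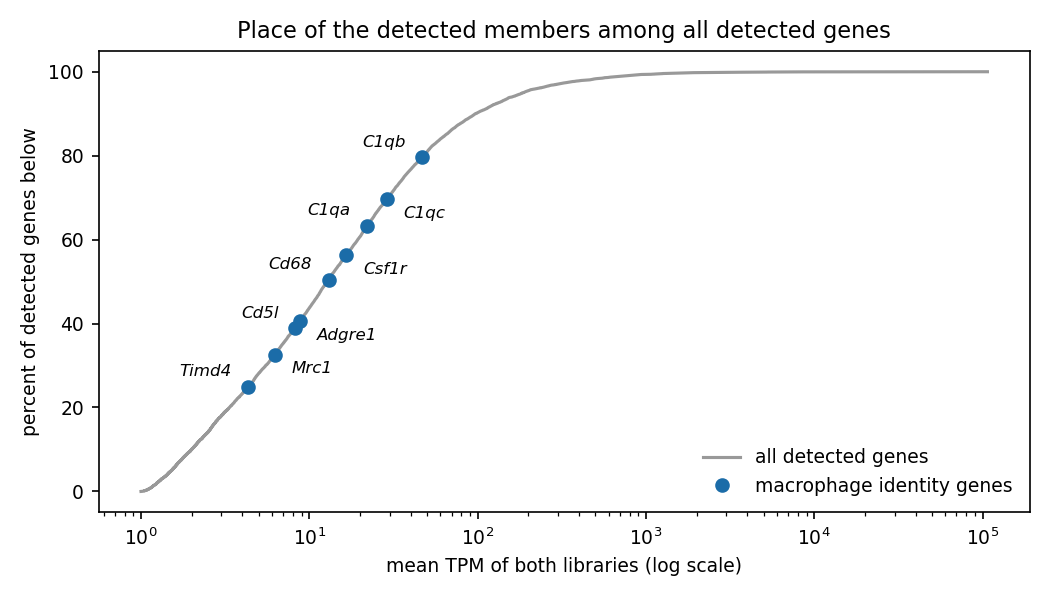
Percent of the 12841 detected genes that lie below a given level (vertical axis) against mean TPM on a log scale (horizontal axis), with the 9 detected macrophage genes marked on the curve of all detected genes. They run from Timd4, with 24.96% of genes below it, to C1qb, with 79.6% below it.

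The sequence before the start of the gene was set beside the extremes of the set. C1qb is shown as the most abundant member, Vsig4 as the one at the detection limit and Mrc1 as the one with the most matches. RefSeq windows of 300 bases on GRCm38.p6, 250 before and 50 from the start, were at hand for 7 of the 10 genes. The start of the leading transcript lay within 22 nt of the RefSeq start for these 3 genes. They are printed 5′ to 3′ on the strand of the gene, with capitals for GAGGAA or its reverse complement TTCCTC, letters that PU.1 sites often hold. The windows are chr4:136886151-136886450 (minus strand), chr2:14229164-14229463 (plus strand) and chrX:96293389-96293688 (minus strand).
C1qb: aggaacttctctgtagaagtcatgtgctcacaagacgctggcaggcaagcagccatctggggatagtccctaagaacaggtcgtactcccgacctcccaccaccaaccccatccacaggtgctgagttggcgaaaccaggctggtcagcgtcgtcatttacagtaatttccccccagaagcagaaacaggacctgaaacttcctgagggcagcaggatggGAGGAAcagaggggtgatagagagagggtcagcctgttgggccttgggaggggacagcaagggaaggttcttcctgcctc
Mrc1: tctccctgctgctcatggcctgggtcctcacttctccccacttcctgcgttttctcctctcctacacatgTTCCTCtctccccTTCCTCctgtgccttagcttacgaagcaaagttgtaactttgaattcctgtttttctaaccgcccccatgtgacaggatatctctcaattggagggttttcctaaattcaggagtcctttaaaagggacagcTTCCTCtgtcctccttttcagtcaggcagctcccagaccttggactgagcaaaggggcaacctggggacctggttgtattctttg
Vsig4: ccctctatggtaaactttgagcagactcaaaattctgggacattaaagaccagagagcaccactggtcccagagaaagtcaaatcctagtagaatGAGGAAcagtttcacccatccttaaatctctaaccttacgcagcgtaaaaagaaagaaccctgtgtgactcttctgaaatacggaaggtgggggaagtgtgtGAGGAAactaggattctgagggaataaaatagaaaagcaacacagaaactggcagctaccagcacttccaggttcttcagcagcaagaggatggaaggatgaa

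GAGGAA on either strand was found in 6 of the 7 windows, those of Cd68, C1qb, C1qc, Mrc1, Cd5l and Vsig4, and in 28.3% of 32851 windows of all genes. Timd4 had none. C1qb had 1 match, with its first base 30 bases before the RefSeq start, Mrc1 had 3 and Vsig4 had 2. Cd68 also had 2, and C1qc and Cd5l had 1 each. TATAAA on either strand, a common core of the TATA box, was found in 0 of the 7 windows and in 13.6% of all. These are matches of letters and not sites of binding, and their relation to the levels was not tested.

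The C1q genes were the most abundant of the set. C1q is the recognition molecule of the classical complement pathway. It is assembled from equal numbers of A, B and C chains and is made mainly by macrophages. C1qb (ENSMUSG00000036905.8), the B chain gene, stood at 46.3 and 47.4 TPM (46.8 ± 0.806, SD, n = 2), from 1440 and 1366 reads. C1qc (ENSMUSG00000036896.5), the C chain gene, had 29.2 and 28.3 TPM (28.8 ± 0.601) from 1014 and 910 reads. The A chain gene C1qa (ENSMUSG00000036887.5) had 22.8 and 21.5 TPM (22.2 ± 0.898) from 675 and 590 reads. The chain genes therefore stood at unequal TPM, in the same order in both pools.

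C1qb exceeded C1qa by 2.03 times in replicate 1 (95% counting interval 1.85 to 2.23) and by 2.20 times in replicate 2 (2.00 to 2.43), a mean of 2.12 ± 0.122 (SD, n = 2). The ratio of C1qb to C1qc was 1.63 ± 0.0621, and that of C1qc to C1qa was 1.30 ± 0.0255. In mm10 coordinates the genes lie side by side on the minus strand of chromosome 4, in the order C1qb (136880129 to 136886187), C1qc (136889804 to 136893065) and C1qa (136895917 to 136898803). The gaps between them are 3616 and 2851 nt and the whole cluster spans 18675 nt. No other gene shares exons with them in the annotation.

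C1q works with proteases and inhibitors that other cells make. Of 13 partner genes of the complement pathway, 10 were detected, and the median level over all 13 was 14.1 TPM. Hepatocytes are known to secrete the central component C3, here at 85.8 ± 2.90 TPM, and the control protease Cfi, at 77.2 ± 2.44 TPM. Cd59a and Cr1l, which shield cells from complement, had 63.6 ± 3.15 and 63.0 ± 3.96 TPM. Named for their role rather than their level, the C1q-bound proteases C1s1 and C1ra had 14.1 ± 0.474 and 4.29 ± 0.0778 TPM. No read was given to their second copies C1rb and C1s2, whose floor of 3 reads lies at 0.0409 and 0.0372 TPM in replicate 1. A gene and its near-identical copy can share reads, so those zeros are uncertain.

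Among 10 genes of C1q-binding proteins, 6 were detected. The most abundant were the chaperone gene Calr at 521 ± 13.3 TPM, C1qbp at 318 ± 18.1 TPM, the integrin gene Itgb1 at 113 ± 0.438 TPM and Lrp1 at 21.2 ± 2.26 TPM, all of which many cell types express. The lowest were Megf10 at 0.18 ± 0.0141 TPM and the inhibitory receptor gene Lair1 at 0.695 ± 0.290 TPM.

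Csf1r, the receptor for the macrophage growth factors CSF1 and IL-34, followed at 16.1 and 17.1 TPM (16.6 ± 0.693). Its gene (ENSMUSG00000024621.11) lies on the plus strand of chromosome 18, from 61100598 to 61132149. It had 2231 and 2214 reads, the most of the 10 genes, as reads also scale with transcript length. Its ligand gene Csf1, named for its role, had 7.52 and 7.44 TPM, so that Csf1r exceeded it by 2.22 ± 0.109 times. The other ligand gene, Il34, had 1 read in replicate 1 and none in replicate 2, which is below the floor of 3 reads. Csf2, the gene of the granulocyte-macrophage factor, had no read in either library, where 3 reads would give 0.136 and 0.147 TPM.

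The related receptor tyrosine kinases include Kit, the stem cell factor receptor, which exceeded Csf1r at 19.5 ± 0.0849 TPM. The others were lower, with Pdgfrb at 7.99 ± 0.877, Pdgfra at 7.40 ± 1.37 and Flt3 at 2.42 ± 0.106 TPM. The list of 12 further genes of the CSF1 receptor axis held 10 detected ones. It was led by the adaptor genes Grb2 at 72.6 ± 6.50 and Tyrobp at 44.8 ± 0.792 TPM, the phosphatase gene Ptpn6 at 27.4 ± 0.304 TPM and Dok2 at 17.4 ± 1.39 TPM. Grb2 and Ptpn6 are used far beyond macrophages.

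Csf1r is the only member with an annotated exon overlap. The end of its longer transcript, Csf1r-202, overlaps exons of Hmgxb3 on the other strand over 873 nt, and the labels do not state strandedness. Hmgxb3 itself had 9.09 and 8.09 TPM. The posterior standard deviation of the Csf1r count was 7.59 of 2231 reads in replicate 1 and 6.38 of 2214 reads in replicate 2, and it was 0 in both libraries for the other 9 genes. That deviation describes the division of reads by the authors' quantifier. It was the same for Hmgxb3, at 7.59 of 1431 reads in replicate 1 and 6.38 of 1179 reads in replicate 2. Reads were thus divided between these genes although they lie on opposite strands. How far that division is right was not tested.

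Cd68, a glycoprotein of late endosomes and lysosomes that is abundant in phagocytes, had 13.2 and 12.8 TPM (13.005 ± 0.332, SD, n = 2) from 419 and 376 reads. Its gene (ENSMUSG00000018774.9) lies on the minus strand of chromosome 11, from 69664213 to 69666153. Lysosomal genes that all cells use were higher except Dnase2a, and all 11 of that list were detected, at a median level of 84.7 TPM. The protease genes Ctsd and Ctsb had 256 ± 3.85 and 203 ± 0.785 TPM, and the membrane protein genes Lamp1 and Cd63 had 172 ± 1.85 and 133 ± 1.67 TPM. Cd68 stood at 0.0757 ± 0.00275 times the level of Lamp1. The lowest of the list was Dnase2a at 9.65 ± 0.226 TPM. It encodes the acid nuclease that degrades the DNA of nuclei taken up by macrophages.

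Adgre1 encodes F4/80, the surface marker most used for mouse macrophages. The gene (ENSMUSG00000004730.10) runs from 57358691 to 57483527 on the plus strand of chromosome 17. It stood at 9.50 and 8.20 TPM (8.85 ± 0.919), from 940 and 750 reads, and was the member with the widest difference between the pools among those detected. Of its family, Adgre5 had a similar level at 10.4 ± 0.608 TPM. Adgre4 stood below the limit at 0.81 ± 0.212 TPM. The more distant relatives Adgrl2, Adgrl4 and Adgrl1 had 7.80 ± 0.764, 7.23 ± 0.523 and 4.52 ± 0.255 TPM, and Adgrl4 is known from endothelium.

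Cd5l, also called AIM, is a secreted protein of tissue macrophages with scavenger receptor domains. Its gene (ENSMUSG00000015854.7) lies on the plus strand of chromosome 3, from 87357881 to 87371073. It had 8.09 and 8.36 TPM (8.23 ± 0.191) from 493 and 472 reads, or 0.936 ± 0.119 times the level of Adgre1. Of 8 other genes of scavenger receptors and related proteins, 2 were detected. They were Marco at 10.8 ± 0.686 TPM and Msr1 at 3.06 ± 0.304 TPM, both phagocytic receptors of macrophages. The T cell genes Cd5 and Cd6 had 0 and 12 reads and 0 and 1 reads. Cd163, the haemoglobin scavenger receptor of adult tissue macrophages, had 0.04 and 0.05 TPM from 5 and 6 reads.

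Mrc1 encodes the mannose receptor CD206, which takes up glycoproteins and which sinusoidal endothelium also expresses. Its gene (ENSMUSG00000026712.3) lies on the plus strand of chromosome 2, from 14229392 to 14332057. It had 6.56 and 5.90 TPM (6.23 ± 0.467) from 1065 and 881 reads. Its paralog Mrc2 had 2.62 ± 0.247 TPM, and Mrc1 stood at 2.40 ± 0.406 times its level. Ly75 had 5.81 ± 0.325 TPM, and Pla2r1 had 0.205 ± 0.0778 TPM. Of 13 endothelial genes, some of them shared with macrophages, 12 were detected. Over all 13 the median level was 10.0 TPM and the summed level was 187 and 180 TPM in replicates 1 and 2. The highest were Oit3 at 30.3 ± 3.18 TPM and Clec1b at 28.3 ± 0.488 TPM, and the lowest were Clec4g at 1.40 ± 0.233 TPM and the clotting factor gene F8 at 0.745 ± 0.304 TPM. The sinusoidal receptor genes Stab2 and Stab1 had 25.6 ± 2.94 and 25.1 ± 0.424 TPM, and Mrc1 stood at 0.244 ± 0.00987 times the level of Stab2. How much of the Mrc1 RNA came from endothelium was not tested.

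Timd4, the TIM-4 receptor that binds phosphatidylserine on dying cells and marks long-lived resident macrophages, was the lowest of the detected genes. Its gene (ENSMUSG00000055546.6) lies on the plus strand of chromosome 11, from 46810800 to 46844332. It had 4.34 TPM in both libraries, from 283 and 262 reads. Exact 95% Poisson intervals ran from 3.85 to 4.88 TPM and from 3.83 to 4.90 TPM. Its level was 0.493 ± 0.0512 times that of Adgre1. The mouse paralog Timd2, a ferritin receptor known from liver, exceeded it by 2.00 ± 0.0717 times at 8.68 ± 0.311 TPM. Havcr2 had 0.10 ± 0.0566 TPM, and Havcr1 had 2 reads in replicate 1 and none in replicate 2.

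Other genes for the uptake of dying cells were present alongside Timd4, with 15 of 16 detected and a median of 15.5 TPM over all 16. Mfge8, a secreted bridge between dying cells and integrins, had 50.2 ± 1.05 TPM, the GTPase gene Rac2 38.3 ± 0.615 TPM and the integrin gene Itgb3 30.2 ± 2.13 TPM. Tyro3, a receptor kinase for bridged dying cells, was the lowest detected at 2.46 ± 0.368 TPM. Integrins and bridging proteins are shared with megakaryocytes and other cells, so the list is not specific to macrophages.

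Vsig4 stood apart from the other 9 genes. It encodes CRIg, a receptor for fragments of complement C3 and a marker of adult Kupffer cells, and its gene (ENSMUSG00000044206.3) lies on the minus strand of chromosome X, from 96247203 to 96293438. No read was given to it in replicate 1 and 2 reads, or 0.05 TPM, in replicate 2. On its coding transcript, with an effective length of 1333 nt, 3 reads would give 0.0715 and 0.0772 TPM in replicates 1 and 2, and the exact Poisson interval of the 2 reads runs from 0.00624 to 0.186 TPM. Even Timd4 exceeded the 3-read floor of Vsig4 by 60.7 times in replicate 1 and 56.2 times in replicate 2, and Adgre1 exceeded it by 133 and 106 times. At this depth Vsig4 was at the limit of detection, which does not show that it was absent. Among 7 related genes, Cd276 was the highest at 5.14 ± 0.0778 TPM, followed by Vsir at 3.20 ± 0.233 TPM. Vsig10 had 1.79 ± 0.361 TPM.

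The remaining adult Kupffer cell genes were split in the same libraries. Of 11, 8 were detected, and the median level over all 11 was 10.8 TPM. The heme-degrading enzyme gene Hmox1 had 76.4 ± 3.80 TPM, Slc40a1 had 74.3 ± 0.410, the adhesion gene Vcam1 41.9 ± 1.90 and the lectin gene Fcna 28.9 ± 3.02 TPM. Hmox1, Slc40a1 and Vcam1 are also made by erythroid, hepatic or stromal cells. Those under the limit were Cd163, the lectin gene Cd209f with 2 reads in each library, and the sialic acid receptor gene Siglec1 at 0.335 ± 0.0354 TPM. Siglec1 is named as the last gene under the limit, after its value was seen. Clec4f, the lectin that defines mouse Kupffer cells and is named for that role, had 1.89 and 2.51 TPM.

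**Figure D3:**
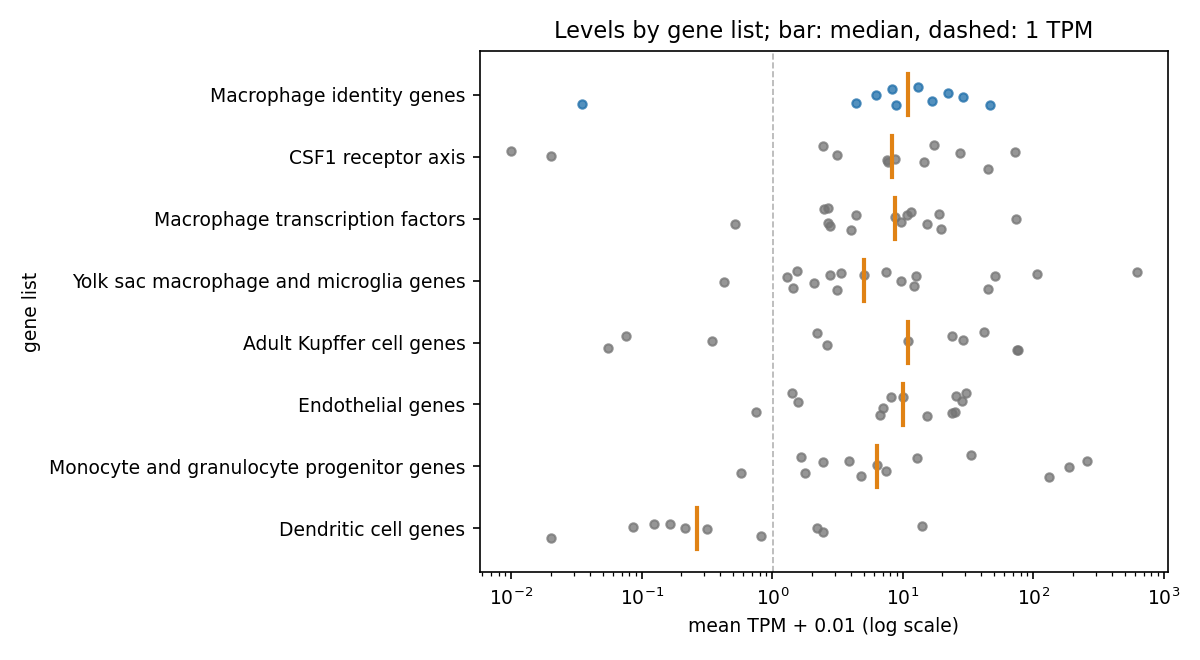
Mean TPM of both libraries plus 0.01 on a log scale (horizontal axis) for single genes, 1 point each, of the macrophage identity genes (top row) and 7 other lists (vertical axis), with the list median as a bar and 1 TPM as a dashed line. The identity genes have 1 point far below the line, Vsig4 at 0.025 TPM, and the dendritic cell list has most of its points left of the line, with a median of 0.255 TPM.

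Genes of macrophage development and of other myeloid cells were read beside the members. Of 17 genes of yolk sac macrophages and microglia, 16 were detected, and the median level over all 17 was 5.00 TPM. The list was led by Pf4 at 618 ± 66.0 TPM, Lyz2 at 107 ± 3.42 TPM, and Fcer1g, an Fc receptor subunit, at 50.6 ± 3.15 TPM. Pf4 is a platelet gene and Lyz2 is shared with granulocytes. The lowest were Sall1 at 1.28 ± 0.127 TPM and the microglial receptor gene Gpr34 at 0.415 ± 0.0354 TPM. Of 15 transcription factors, 14 were detected, and the median level over all 15 was 8.66 TPM. Id3, which is needed for Kupffer cells, had 73.5 ± 4.26 TPM but is expressed in many cells. Cebpb, Zeb2 and Spi1 had 19.7 ± 0.905, 19.0 ± 1.15 and 15.3 ± 1.02 TPM. Spi1 encodes PU.1, which all macrophages need.

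Of 13 monocyte and granulocyte genes, 12 were detected, with a median level of 6.32 TPM and summed levels of 603 and 694 TPM over all 13. They included Mpo at 186 ± 4.47 TPM and Prtn3 at 33.5 ± 0.156 TPM, enzymes of granulocyte progenitors, and the inflammatory genes S100a8 at 256 ± 27.4 TPM and S100a9 at 131 ± 26.7 TPM. The lowest were Ccr2, a monocyte receptor, at 1.64 ± 0.0354 TPM and Cd177 at 0.57 ± 0.141 TPM. Monocytes and their progenitors are known to express Csf1r and Cd68 too, and their part in the levels of these genes was not tested. Dendritic cell genes were mostly under the limit, with 3 of 10 detected. Zbtb46, which erythroid and endothelial cells also express, had 14.1 ± 0.820 TPM, Flt3 had 2.42 ± 0.106 TPM and the antigen presentation gene H2-Ab1 had 2.20 ± 0.0495 TPM. Cd74 had 0.815 ± 0.106 TPM, its partner H2-Aa had 3 and 1 reads, and Xcr1 had 0 and 2 reads.

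For most members 1 transcript held nearly all of the level. Of the 10 genes, 4 (C1qa, C1qb, Timd4 and Cd5l) had 1 transcript in the tables, and for all 9 detected genes the leading transcript was protein-coding. Its share of the gene's TPM had a median of 99.5% over the 9 genes and was lowest for Csf1r. For the 4 genes with 1 transcript the share can only be 100%. Among the other detected genes its mean ran from 79.2% for Csf1r to 99.5% for C1qc, with Mrc1 in the middle at 96.0%. Csf1r-202 held 76.4% of Csf1r TPM in replicate 1 and 82.0% in replicate 2, and Csf1r-201 held the rest. Both have the same coding exons, of 2931 coding nt, and differ in their untranslated ends. The overlap of 873 nt with Hmgxb3 lies in Csf1r-202 and not in Csf1r-201, and its effect on these shares was not tested. The posterior standard deviation of the Csf1r-201 count was 91.6 of 451 reads in replicate 1 and 95.4 of 337 reads in replicate 2, so the counts overlap within 1 such deviation.

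Cd68 was the other gene with a sizeable second transcript. The coding transcript Cd68-201 held 79.7% and 80.5% of Cd68 TPM, the noncoding model Cd68-203 held 20.3% and 19.5%, and Cd68-202 had no reads. Because Cd68-203 is short, at 612 nt against 1230 nt, Cd68-201 held a larger part of the reads, 89.7% and 90.1%. For Mrc1, the model with a retained intron held 3.51% and 4.41% of TPM, from 13.99 and 14.95 reads. Adgre1-202 held 98.6% and 94.5% of Adgre1 TPM, and it has the same coding exons as Adgre1-201. C1qc-201 held 99.9% and 99.2% of C1qc TPM.

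**Figure D4:**
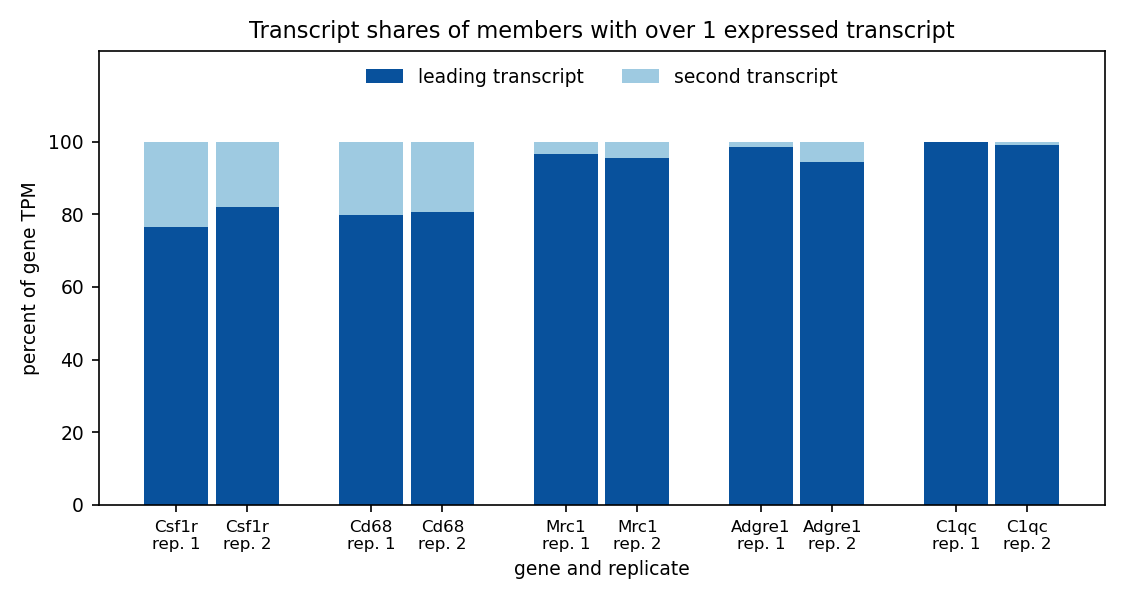
Percent of the gene's TPM (vertical axis) held by the leading and the second transcript in replicate 1 and replicate 2 (paired bars) of the 5 detected genes with more than 1 expressed transcript. Csf1r and Cd68 keep 18.0% to 23.6% of their TPM in a second transcript and the other 3 genes keep less than 6%.

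The pools were compared as replicate 1 over replicate 2, on log2 ratios of TPM after adding 0.1. Among 9 members averaging 50 or more expected counts, 0 differed by over 25% of the lower pool, whereas 8.65% of 13017 such genes did. At that background less than 1 of 9 genes would pass the limit, so the count of 0 is near the background and says nothing particular of these genes. The median log2 ratio was 0.04 for the members and 0.01 for all these genes, and 7 of the 9 lay within 1.1-fold, against 67.8% of all. Adgre1 was 1.16 times higher in replicate 1 (1.05 to 1.28 by exact counting interval), and Mrc1 was 1.11 times higher (1.02 to 1.22). The intervals of the other 7 members included 1, that of Csf1r only just (0.888 to 1.00012). On this scale 5 members were higher and 3 lower in replicate 1, Csf1r, Cd5l and C1qb being the lower ones, but scaled by the spike-ins all 9 were higher. That scaling shifts the median of all genes to 0.12. Each pool is 1 library, so these differences have no replicate check.

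**Figure D5:**
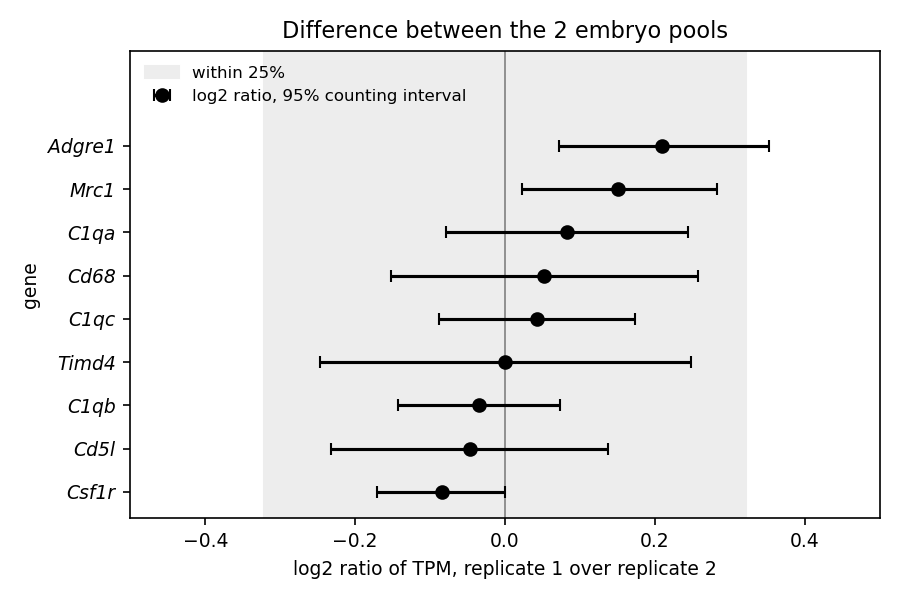
Log2 ratio of TPM, replicate 1 over replicate 2 (horizontal axis), of the 9 detected macrophage genes (vertical axis), with exact 95% counting intervals as bars and the range within 25% shaded. All 9 points lie in the shaded range, and the 3 below 0 (Csf1r, Cd5l and C1qb) turn positive when scaled by the spike-ins.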

How the data were processed

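Liver RNA of 2 embryo pools, 1 library each, was quantified by the authors on mm10 with GENCODE M4, per the file headers. Which program aligned or quantified them is not given in the sources used here. Deposited by the authors were, per gene and transcript, expected counts (estimated reads, not normalized), TPM (scaled over all entries, spike-ins included), FPKM, the percent of gene TPM per transcript, and posterior standard deviations of counts.

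Symbols were matched for 42462 of 43346 mouse identifiers. Coordinates, transcript types and overlaps came from GENCODE M21 on the same assembly, and 16 of 17 member transcripts had the same length there. Detection meant TPM of at least 1 in both libraries. Intervals are exact 95% Poisson (levels) or Clopper-Pearson (ratios) intervals on rounded expected counts, and the floor is 3 reads. Without molecular identifiers they cover counting error only. Ratios between pools used a pseudocount of 0.1, which understates ratios of low genes, and genes averaging 50 or more expected counts. The fold limit and the ratio intervals were tried on simulated Poisson counts scaled by depth. That trial used no TPM and no pseudocount, so it does not check the TPM ratios. The deposited values of 1 group allow no test, so no p-value was computed. Alternatives used edgeR 4.0.16 TMM and DESeq2 1.42.0 size factors in R 4.3.3, with Python 3.11.15 and SciPy 1.17.1 for the rest. Named were all members and, from each other list, up to 4 of the highest and 2 of the lowest genes, with exceptions said. The members and lists were chosen with earlier results of these data known.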

Additional observations from a re-analysis of the deposited data

How the results depend on the processing

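The number of detected members, 9, stayed at 9 under the other limits tried, except for 8 at a limit of 5 TPM, where Timd4 dropped out. Median TPM over the 10 members, 10.9, became 9.16 as FPKM, 11.5 with TPM rescaled to mouse genes and 12.6 over protein-coding genes. The median percentile of the detected members, 50.4 among detected genes, became 47.7 among protein-coding ones and 72.9 among all genes above 0. The median log2 ratio between the pools, 0.04, became 0.16 by spike-ins. The number of members past 25%, 0, became 1 without a count filter (Vsig4, on 0 and 2 reads), 1 by spike-ins (Adgre1) and 2 past a 1.1-fold limit (Adgre1 and Mrc1), where 31.4%, 11.4% and 32.2% of all genes were past the limit. Without division by length, C1qb over C1qc was 1.46 and C1qc over C1qa was 1.52, since the genes differ in length. Over single members, 102 of 131 alternatives moved the value by less than its spread. That count includes settings that could not come out otherwise, so it does not measure stability. Leaving out either library can move no mean of 2 beyond that SD, and the share of a gene with 1 transcript is always 100%. No paired analysis was possible because there is 1 group. The depth limits Vsig4 most, at 0 and 2 reads.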

Other observations

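Of 14 macrophage transcription factors averaging 50 or more expected counts, 5 differed between the pools by over 25% in TPM. Of all genes 8.65% did, a share that depends on depth and was 3.35% at a higher count limit. Of 136 genes on the lists beside the identity genes, these factors included, 14.7% did. The 0 of 9 identity genes is near the background and gives no contrast. The factors did not stand alone, since 5 of 11 monocyte and granulocyte genes also passed the 25% limit. All of these were lower in replicate 1 (Ms4a3, Elane, Ctsg, Fcnb and S100a9). The genes named in these paragraphs were chosen after their values were seen. Spic, a factor of iron-recycling macrophages, stood at 5.00 and 3.04 TPM in replicates 1 and 2, from 195 and 145 reads. Batf3 had 3.19 and 2.29 TPM, Tfec 3.01 and 2.35 TPM and Maf 2.77 and 2.19 TPM. Maf and Tfec passed the 25% limit narrowly, with TPM ratios of 1.253 and 1.269. Bhlhe40 was lower in replicate 1, at 3.44 against 5.28 TPM. By the ratio of reads scaled by depth, Spic at 1.24 and Bhlhe40 at 0.854 lay within 25%. Batf3 at 1.34, Maf at 1.30 and Tfec at 1.28 stayed past that limit. These factors have fewer reads than most members, with 64 and 44 for Batf3, and no difference between lists was tested.

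In several genes of the lists the TPM ratio and the ratio of reads scaled by depth parted, and 4 of them are given as examples. Spic had ratios of 1.62 in TPM and 1.24 in reads, with a transcript-weighted length of 1338 nt in replicate 1 and 1735 nt in replicate 2. The receptor kinase gene Axl had 12.3 and 17.4 TPM, a ratio of 0.711, but a ratio of 0.941 in reads, with lengths of 4034 and 3059 nt. Bhlhe40 had ratios of 0.658 in TPM and 0.854 in reads, with lengths of 3113 and 2393 nt. Vsig10 had ratios of 1.31 in TPM and 0.993 in reads, with lengths of 1682 and 2214 nt. The weighted length reflects how reads were divided among transcripts in each library, and how far that division sets the TPM difference was not tested.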
